A study of Mus musculus with 20 samples.

Results

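The replication-dependent histone cluster genes were taken as the protein-coding rows of the gene table whose symbol begins with Hist1h, Hist2h, Hist3h or Hist4h. There were 67 of them among 32285 genes, 6 for the linker histone H1, 18 for H2A, 18 for H2B, 12 for H3 and 13 for H4. In the GENCODE M21 annotation of GRCm38 (mm10) all 67 identifiers carried the same symbol. The 54 Hist1 genes lie on chromosome 13, the 10 Hist2 genes on chromosome 3, the 2 Hist3 genes on chromosome 11 and the single Hist4 gene on chromosome 6. A total of 40 of the 67 reached at least 1 TPM (a relative level corrected for transcript length, which sums to the same total in every library) in at least 5 libraries and were tested, among 12350 genes of the whole table.

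Histones package DNA into chromatin: H2A, H2B, H3 and H4 form the nucleosome core, and H1 binds the linker DNA between nucleosomes. The cluster genes are transcribed mainly while DNA is replicated, under the co-activator NPAT, and most of their mRNAs end in a conserved stem-loop in place of a poly(A) tail. The stem-loop binding protein SLBP and the U7 small nuclear RNP direct that end cut, and the mRNAs are degraded when replication stops. Libraries made from polyadenylated RNA, as here, therefore see only the polyadenylated part of these transcripts, and the levels below are not their total RNA.

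The cells were immortalised primary murine cancer-associated fibroblasts, the fibroblasts of the tumour stroma, all kept for 32 h with DMSO as vehicle. There were 4 groups of 5 libraries. In low glutamine (0.2 mM) the cells had either 25 uM EIPA (02Qeipa) or the vehicle alone (02Qveh). In high glutamine (4 mM) they had either IL-1a at 25 pg/mL (4Qil1a) or the vehicle alone (4Qveh). EIPA blocks macropinocytosis, the engulfment of outside fluid, through its action on sodium-proton exchangers, and IL-1a is an inflammatory cytokine. The protocol text gives the EIPA dose in mM, and the titles' value is used here. Nothing in the labels says that replicates were separate cultures, and p-values then reflect no more than the spread among these libraries, which may be technical. Nor do the labels give the number of cell lines or the method of immortalisation.

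Between 11749 and 12045 genes reached 1 TPM in a library. TPM keep no trace of sequencing depth, so the depth is unknown and no counting error can be given. Of the fibroblast markers, Col1a1 averaged 1827 TPM and Vim 2415 TPM across all 20 libraries, while Lum and Fap were at 0.1 and 0.0505 TPM. Of the markers of other cell types Adgre1, Cd3e and Sox10 were listed at 0 and Ptprc and Epcam were at 0.0005 and 0.103 TPM, whereas Krt19 was at 176, Krt18 at 10.3, Kdr at 4.95 and Cd68 at 3.64 TPM (7.85 in 02Qeipa and 2.35 in 02Qveh). The mesothelial genes Msln, Wt1 and Upk3b were at 89.2, 123 and 72.8 TPM. The 13 fibroblast markers summed to 2333 to 2663 TPM in 02Qeipa, 4021 to 4928 in 02Qveh, 9231 to 11096 in 4Qil1a and 10824 to 11639 in 4Qveh. Between the vehicle groups 10 of the 11 tested were called lower at 0.2 mM, against 27.9% of all tested genes. The 21 markers of other cell types summed to 211 to 310, 321 to 453, 503 to 858 and 555 to 938 TPM in the same groups. The part of both lists in the results below was not tested. IL-1a replicates 1 and 5 and 4 mM vehicle replicate 5 stand apart on the third principal component, which held 4.07% of the variance.

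The stem-loop is shown for the members whose levels are described below, since it sets how a histone mRNA ends. It was searched on the sense strand of the GENCODE M21 transcripts as a fully paired stem of 6 bases a side, opening with GG and closing with CC, with CT just before and AG just after a loop of 4 bases in which the first base and the third are T. It was found in 46 of the 67 histone genes and in 55 of 21901 protein-coding genes (0.251%), always after the stop codon in the histone genes, at 21 to 58 bases from it (median 31). In the lines below, capitals mark the stem-loop.
Hist1h1c: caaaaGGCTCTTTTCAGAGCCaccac
Hist1h2ag: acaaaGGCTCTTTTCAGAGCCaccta
Hist3h2a: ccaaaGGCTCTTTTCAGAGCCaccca
Hist1h2bj: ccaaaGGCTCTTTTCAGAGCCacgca
Hist1h3c: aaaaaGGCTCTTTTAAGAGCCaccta
Hist1h3g: ttaaaGGCTCTTCTTAGAGCCaccca
Hist1h4i: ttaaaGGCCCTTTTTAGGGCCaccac
Hist1h4m: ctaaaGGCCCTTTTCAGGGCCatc

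The H1, H2A and H2B members shown share the same 16 bases, Hist1h3c and Hist1h3g differ from them only in the loop, and the H4 members carry another stem. All 12 H4 genes with a match had a stem unlike that of the other classes. Among the 9 other protein-coding genes with a match were H2afx, which encodes the variant H2A.X, and 8 further genes. Of the 21 histone genes without a match, 15 had fewer than 10 annotated bases after the stop codon, so no search was possible there. The annotated transcripts of Hist1h2bc and Hist2h2be run on for 742 and 2192 bases after the stop codon without this motif.

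The annotated transcripts differed in how far they run on past the stem-loop. Hist1h1c was annotated for 840 bases after the stem-loop, Hist1h4i for 330 and Hist3h2a for 1643, whereas Hist1h2ag and Hist1h2bj ended 23 bases after it and Hist1h4m 3 bases after it. The 11 tested genes with at least 100 such bases had a median level of 1.39 TPM over the 20 libraries, against 1.78 for the 17 with fewer.

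Promoters are shown for the most abundant H1 and H4 genes, for an H2A gene that was lower at 0.2 mM glutamine and for Hist3h2a, which was not. RefSeq windows of the 250 bases before the start (GRCm38.p6) were found for 61 of the 67 genes, as 62 windows. They were searched on both strands for the CCAAT box, a TATA box written TATAAA, the octamer motif ATTTGCAT and the H1 box motif AAACACA. No motif contains another. Capitals mark these motifs or their reverse complements. The windows are chr13:23738557-23738806 on the plus strand, chr13:22042950-22043199 on the minus strand, chr11:58954435-58954684 on the plus strand and chr13:22041363-22041612 on the minus strand.
Hist1h1c: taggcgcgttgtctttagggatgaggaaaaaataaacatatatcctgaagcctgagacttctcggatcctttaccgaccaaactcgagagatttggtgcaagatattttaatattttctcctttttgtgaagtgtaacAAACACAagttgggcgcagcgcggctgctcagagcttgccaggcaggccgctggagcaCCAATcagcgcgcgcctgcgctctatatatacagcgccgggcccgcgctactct
Hist1h2ag: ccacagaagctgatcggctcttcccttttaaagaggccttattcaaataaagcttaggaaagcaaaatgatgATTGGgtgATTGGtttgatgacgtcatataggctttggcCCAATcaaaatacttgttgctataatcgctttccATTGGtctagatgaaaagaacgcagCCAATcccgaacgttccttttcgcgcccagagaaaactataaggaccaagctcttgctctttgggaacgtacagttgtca
Hist3h2a: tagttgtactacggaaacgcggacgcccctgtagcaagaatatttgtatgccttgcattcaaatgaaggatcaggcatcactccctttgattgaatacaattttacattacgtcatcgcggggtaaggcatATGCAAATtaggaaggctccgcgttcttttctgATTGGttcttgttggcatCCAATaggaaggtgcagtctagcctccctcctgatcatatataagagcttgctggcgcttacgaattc
Hist1h4i: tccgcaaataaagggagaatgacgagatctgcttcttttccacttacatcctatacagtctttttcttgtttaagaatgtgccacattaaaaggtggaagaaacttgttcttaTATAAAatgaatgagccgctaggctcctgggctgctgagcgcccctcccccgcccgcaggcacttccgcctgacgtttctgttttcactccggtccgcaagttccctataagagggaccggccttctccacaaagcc

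Hist1h2ag and Hist1h2bj are divergent neighbours: the window of Hist1h2bj, chr13:22042948-22043197 on the plus strand, is nearly the same stretch read from the other strand. CCAAT was present in 82.3% of the histone windows against 33.8% of 32851 promoter windows, and TATAAA in 46.8% against 12.4%. CCAAT was in each of the 6 H1, 17 H2A and 17 H2B windows, in 8 of 10 H3 windows and in 3 of 12 H4 windows. The octamer was in 7 of 17 H2A and 7 of 17 H2B windows and in 1.6% of all windows, and no H1, H3 or H4 window held it. AAACACA was in 5 of 6 H1 windows against 6.25% of all windows. These matches describe letters in the windows and say nothing of binding.

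Polyadenylated histone cluster RNA was lower in each group at 0.2 mM than in each group at 4 mM glutamine. EIPA was given only at 0.2 mM and IL-1a only at 4 mM, so only the vehicle groups compare glutamine alone. Summed over all 67 genes, the level was 51.6 ± 4.81 TPM (SD, n = 5) in vehicle at 0.2 mM and 205 ± 14.9 TPM in vehicle at 4 mM, a ratio of 3.98. It was 44.2 ± 3.81 TPM with EIPA and 213 ± 51.2 TPM with IL-1a. The 5 vehicle libraries at 0.2 mM were at 48.4, 50.5, 53.8, 58.7 and 46.5 TPM, and those at 4 mM at 196, 188, 199, 217 and 224 TPM. The EIPA libraries were at 43.0, 44.6, 46.9, 38.3 and 48.0 TPM, and the IL-1a libraries at 210, 301, 172, 200 and 184 TPM. No library at 0.2 mM came near any at 4 mM, the EIPA and vehicle ranges over all 67 genes overlapped, and IL-1a replicate 2 stood above every other library. In bulk polyadenylated RNA, fewer cells in replication, less histone RNA per cell and a smaller polyadenylated part of it cannot be told apart. No test was run on these sums, whose members were chosen.

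The classes differed in how far apart the glutamine levels were. The ratio of 4 mM to 0.2 mM vehicle, over all members of a class, was 5.35 for H1, 5.56 for H2B and 5.40 for H3, against 3.65 for H4 and 2.08 for H2A. Single genes weighed heavily in these ratios. In vehicle Hist3h2a gave 58.8% of the H2A sum at 0.2 mM and 23.8% at 4 mM. Hist1h1c gave 91.4% and 89.1% of the H1 sum. The top gene gave 52.6% of the H2B, 20.7% of the H3 and 60.7% of the H4 sum in vehicle at 0.2 mM. In each class the vehicle libraries at 0.2 mM and 4 mM did not overlap. Summing over a class removes the uncertainty from reads shared within that class. Hist1h2bc, Hist1h4i and Hist1h1c together gave 37.6% of the summed TPM of all 67 genes in vehicle at 0.2 mM and 48.3% at 4 mM. Without those 3 genes the ratio over the remaining 64 was 3.29. At 0.2 mM the sums over those 64 did not overlap, at 20.36 to 27.38 TPM with EIPA against 28.63 to 38.95 TPM with vehicle. Hist3h2a stayed in these sums and made up 25.9% of them with EIPA and 29.2% with vehicle. Its own mean was 6.25 TPM with EIPA and 9.39 TPM with vehicle. The gap thus came in part from this single gene and does not show a fall across the 64. Leaving out the 3 genes was decided after seeing the data.

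**Figure D1:**
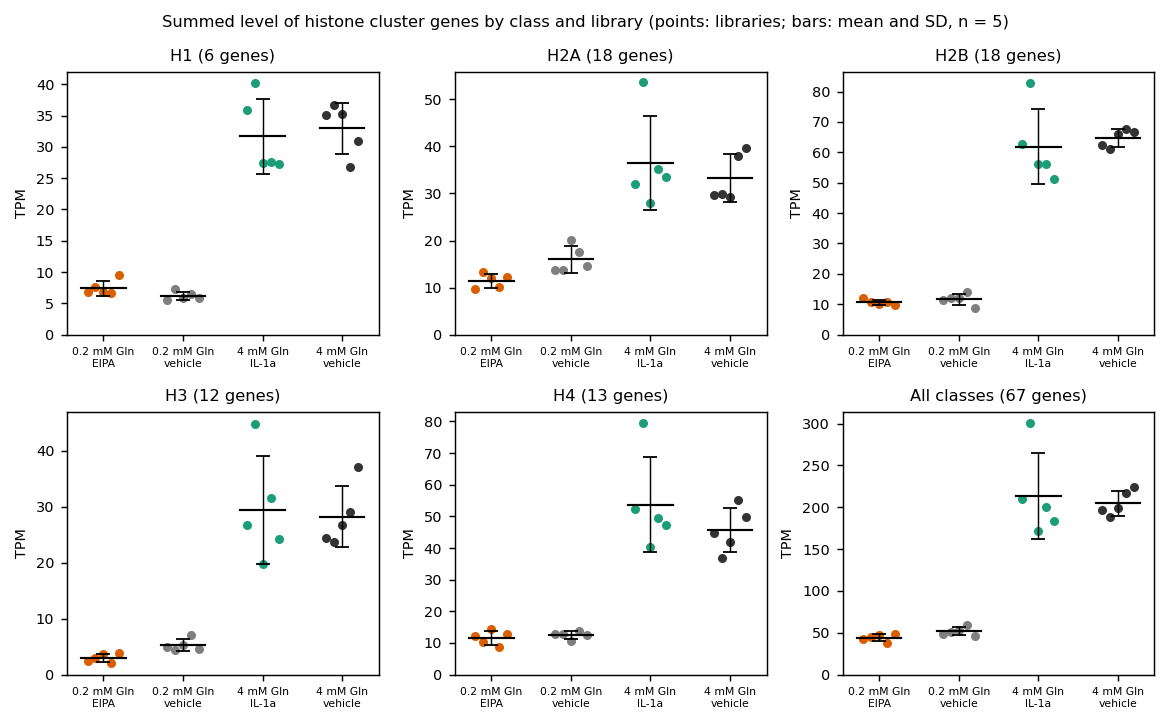
Summed TPM of the histone cluster genes of each class in every library (y axis, TPM, from 0) for the 4 groups (x axis; Gln, glutamine). Points are libraries, and bars give the mean and SD of 5; in every panel the libraries at 4 mM lie above those at 0.2 mM, and IL-1a replicate 2 is the highest of all in the H1, H2A, H2B, H3 and H4 panels.

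Single genes were tested with limma on log2(TPM + 1), with p-values adjusted over 12350 genes. Between the glutamine levels 73.3% of all tested genes were called, 27.9% as lower and 45.4% as higher at 0.2 mM. Median-of-ratios scaling gave 4438 lower and 4385 higher genes in place of 3449 and 5606. The median gene was 0.14 higher (log2) at 0.2 mM, so changes between glutamine levels are given relative to it, on the log2(TPM + 1) scale, which understates those of low genes. Calls refer to the unshifted values.

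Of the 40 tested histone genes 35 were called lower at 0.2 mM, 1 was called higher and 4 were not called, and the median change was -1.18 relative to the median gene. That count is set in part by the filter: 31 of the 40 reached it only through the 4 mM libraries so their lower level at 0.2 mM is not independent of it. The 7 that reached it in the 0.2 mM libraries alone are Hist1h1c, Hist2h2aa2, Hist3h2a, Hist1h2bc, Hist1h2bj, Hist2h2be and Hist1h4i, of which 4 were called lower, 1 higher and 2 not. In 23 of the 40 genes the vehicle groups did not overlap, with the lower values at 0.2 mM, where 22.7% of all tested genes did so (59.9% in either direction). In 19 of the 40 every one of the 10 libraries at 0.2 mM was below every one of the 10 at 4 mM, where 14.0% of all tested genes did so. Both counts carry the same limit, since only 4 of the 23 and 4 of the 19 (Hist1h1c, Hist1h2bc, Hist1h2bj and Hist1h4i) are among the 7 genes that passed in the 0.2 mM libraries alone. Without the 3 libraries that stand apart, 30 were called lower and 1 higher. Hist2h2aa1 was then called lower, Hist1h2ah, Hist1h2ak, Hist2h2ac, Hist1h3i, Hist1h4c and Hist1h4m were not, and the lower calls were 4 of 10 in H2A, 9 of 10 in H3 and 6 of 8 in H4.

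The H1 genes tested were Hist1h1c, Hist1h1b and Hist1h1e, and each was lower at 0.2 mM glutamine. Only Hist1h1c had reached the filter in the 0.2 mM libraries alone. Hist1h1c, a linker histone gene on the plus strand at chr13:23738808-23740367, had 5.2, 6.52, 5.44, 5.59 and 5.41 TPM in vehicle at 0.2 mM. In vehicle at 4 mM it had 31.8, 33.7, 31.5, 23.9 and 26.1 TPM. EIPA libraries were at 6.15, 7.06, 6.1, 6.3 and 8.83 TPM. IL-1a libraries were at 32.0, 31.4, 24.6, 24.2 and 24.2 TPM. All libraries at 4 mM were thus far above all at 0.2 mM, and the treated libraries lay with the vehicle libraries of their glutamine level. Hist1h1c was lower by -2.32 ± 0.11 (SE; limma adjusted p = 5.12e-13), a ratio of group means of 5.22. Its sequence was distinct, with 93.3% of its 75-base windows found in no other gene.

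Hist1h1b, a linker histone gene on the minus strand at chr13:21779883-21780625, was nearly absent at 0.2 mM. Vehicle libraries there held 0.11, 0.12, 0, 0.37 and 0 TPM and EIPA libraries 0.11, 0.25, 0.13, 0 and 0.14 TPM. At 4 mM the vehicle libraries held 1.21, 1.37, 0.93, 1.08 and 1.67 TPM and the IL-1a libraries 2.18, 3.68, 1.09, 1.29 and 1.7 TPM. The groups did not overlap between glutamine levels, and the change was -1.14 ± 0.17 (limma adjusted p = 1.44e-05). Hist1h1e changed by -0.86 ± 0.17 (limma adjusted p = 0.000549).

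H2A was the class with the most exceptions: of 10 tested genes 6 were lower at 0.2 mM, 1 was higher and 3 were not called. Of these 10, 2 (Hist3h2a and Hist2h2aa2) had reached the filter in the 0.2 mM libraries alone, against 0 of 10 in H3. The counts by class thus depend in part on the filter. Hist1h2ag, on the minus strand at chr13:22042460-22042944, held 0.9, 0.19, 0.65, 0.75 and 0 TPM in vehicle at 0.2 mM and 4.33, 6.03, 2.94, 6.84 and 6.69 TPM in vehicle at 4 mM. EIPA libraries were at 0.76, 0.62, 0.27, 0.31 and 0.83 TPM and IL-1a libraries at 5.67, 6.12, 3.56, 7.25 and 7.83 TPM. The 2 glutamine levels did not overlap, and the change was -2.22 ± 0.21 (limma adjusted p = 1.9e-08). Only 22.4% of its 75-base windows belong to no other gene, so its level is uncertain against those of its near copies. Hist1h2ap was listed at 0 in all 5 vehicle libraries at 0.2 mM and at 2.15 to 5.86 TPM in those at 4 mM, with 7.4% of windows of its own.

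Hist3h2a, the H2A gene of the small Hist3 cluster on the plus strand at chr11:58954685-58956830, was the tested histone gene called higher at 0.2 mM. Vehicle libraries at 0.2 mM held 8.14, 8.03, 11.02, 10.2 and 9.6 TPM and those at 4 mM 7.29, 6.87, 7.91, 8.28 and 9.23 TPM. EIPA libraries held 6.06, 6.26, 6.89, 5.61 and 6.45 TPM, and IL-1a libraries 9.34, 7.13, 8.19, 8.05 and 8.0 TPM. The vehicle groups overlapped, while the EIPA libraries lay below all vehicle libraries at 0.2 mM. The unshifted change was 0.22 ± 0.09 (limma adjusted p = 0.0373), which is 0.08 relative to the median gene. The call was lost with median-of-ratios scaling (adjusted p = 0.395), with quantile normalisation (0.0612), without the mitochondrial genes (0.0607), without the filter (0.0611), with only the 2 groups in the model (0.0636), and without any of 02Qveh replicates 3, 4 and 5 or 4Qveh replicates 1, 2 and 3 in turn (0.0558 to 0.122). Hist2h2aa1, Hist2h2aa2 and Hist1h2ai were not called, with differences of -0.97 ± 0.45, -0.67 ± 0.26 and -0.28 ± 0.46.

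Of the 9 tested H2B genes 8 were lower at 0.2 mM and 1 was not called. Only Hist1h2bc, Hist1h2bj and Hist2h2be had reached the filter in the 0.2 mM libraries alone. Hist1h2bc, on the plus strand at chr13:23684199-23692908 and annotated with 2 exons, had the highest mean of the histone genes, 22.7 TPM over the 20 libraries. Vehicle libraries at 0.2 mM held 7.09, 6.09, 6.51, 6.24 and 4.71 TPM and those at 4 mM 42.9, 43.0, 47.3, 38.2 and 37.0 TPM. EIPA libraries held 6.19, 5.74, 4.75, 6.36 and 5.35 TPM, and IL-1a libraries 42.5, 39.9, 37.5, 32.4 and 34.1 TPM. The gap between glutamine levels was many times the spread within a group, and the change of -2.72 ± 0.10 (limma adjusted p = 7.76e-15) was the largest fall of the tested histone genes on the log2(TPM + 1) scale. Its ratio of group means was 6.80, and ratios were larger for several low genes, such as 15.1 for Hist1h4n and 10.8 for Hist1h2ag. Of its 75-base windows 72.9% belong to no other gene.

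Hist1h2bj, on the plus strand at chr13:22043214-22043676 and sharing its start region with Hist1h2ag, held 0.25, 1.16, 1.22, 1.7 and 0 TPM in vehicle at 0.2 mM against 3.78, 4.02, 3.57, 4.99 and 5.03 TPM at 4 mM. EIPA libraries were at 1.32, 0.55, 0.63, 0 and 1.2 TPM and IL-1a libraries at 4.27, 5.61, 2.62, 7.85 and 4.9 TPM. Again the glutamine levels did not overlap, and the change was -1.72 ± 0.27 (limma adjusted p = 1.75e-05). Hist2h2be, an H2B gene of the Hist2 cluster at chr3:96221119-96223738 on the plus strand, was singled out after its values were seen. It held 1.36, 1.23, 1.54, 1.73 and 1.07 TPM in vehicle at 0.2 mM and 1.58, 1.38, 1.58, 1.47 and 1.22 TPM at 4 mM, with wide overlap. Its unshifted difference was -0.04 ± 0.12 (limma adjusted p = 0.772; 95% interval -0.29 to 0.21), and all of its 75-base windows are its own.

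**Figure D2:**
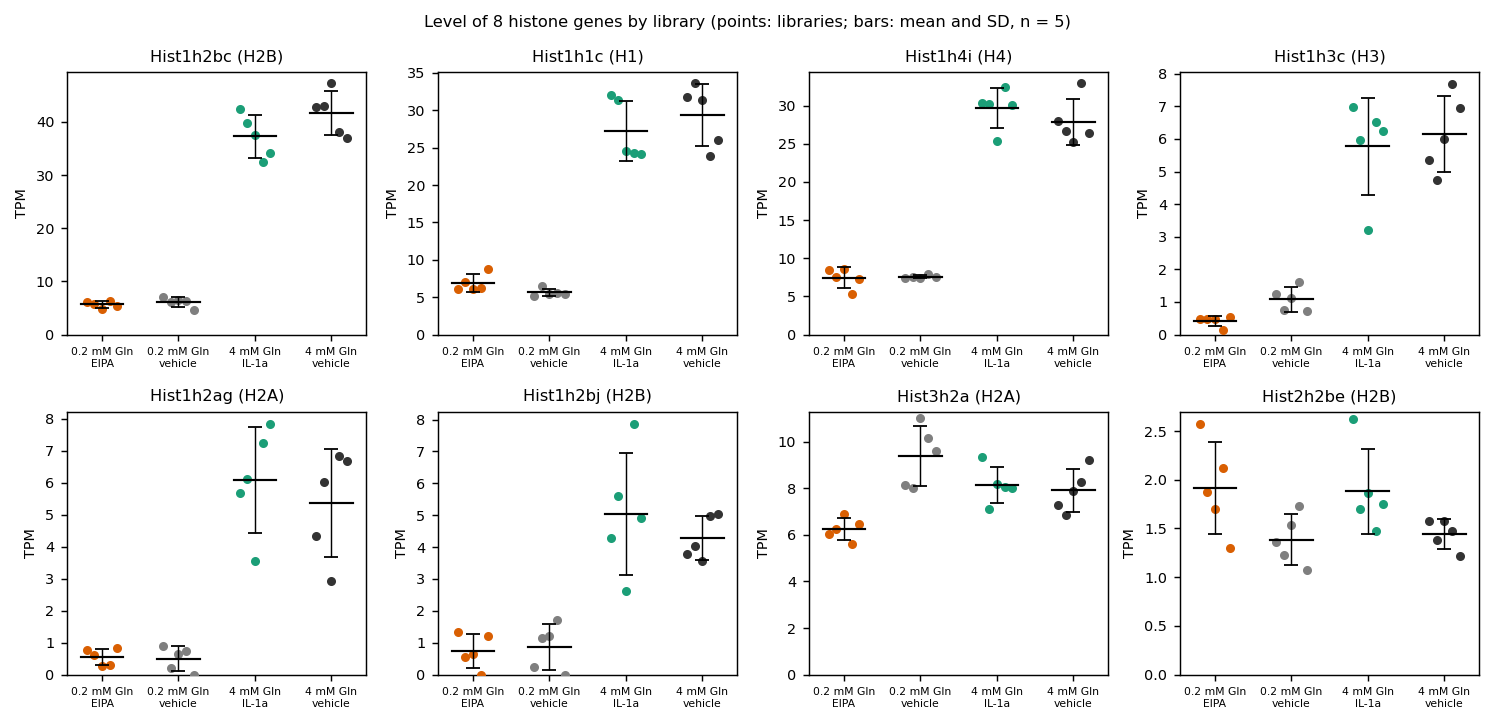
TPM of 8 histone genes in every library (y axis, TPM, from 0) for the 4 groups (x axis; Gln, glutamine), with points for libraries and bars for the mean and SD of 5. Hist1h2bc, Hist1h1c, Hist1h4i, Hist1h3c, Hist1h2ag and Hist1h2bj are higher at 4 mM in every library, whereas Hist3h2a is lowest with EIPA (5.61 to 6.89 TPM) and Hist2h2be overlaps in all groups.

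All 10 tested H3 genes were lower at 0.2 mM, with changes from -1.92 to -0.76, and each of them had reached the filter only through the 4 mM libraries. Hist1h3c, on the minus strand at chr13:23744973-23745602, held 1.23, 0.74, 1.11, 1.61 and 0.71 TPM in vehicle at 0.2 mM and 5.37, 4.75, 6.01, 7.68 and 6.95 TPM in vehicle at 4 mM. EIPA libraries held 0.47, 0.47, 0.48, 0.15 and 0.53 TPM, below every vehicle library at 0.2 mM, and IL-1a libraries 6.97, 5.97, 3.2, 6.51 and 6.24 TPM. The change between glutamine levels was -1.92 ± 0.16 (limma adjusted p = 3.22e-09). Hist1h3g, on the plus strand at chr13:23535422-23535951, held 0.73, 0.38, 0.55, 0.61 and 0.2 TPM in vehicle at 0.2 mM and 2.15, 3.07, 3.2, 5.03 and 4.94 TPM at 4 mM. EIPA libraries were at 0, 0.62, 0, 0 and 0.7 TPM and IL-1a libraries at 4.3, 3.45, 4.72, 4.85 and 2.86 TPM. Again no library of 1 glutamine level reached the other, and the change was -1.75 ± 0.19 (limma adjusted p = 1.94e-07).

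All 8 tested H4 genes were lower at 0.2 mM, with changes from -1.88 to -0.69. Only Hist1h4i of the 8 had reached the filter in the 0.2 mM libraries alone, so the count is set in part by the filter. Hist1h4i, on the minus strand at chr13:22040636-22041362, held 7.48, 7.6, 7.46, 7.88 and 7.61 TPM in vehicle at 0.2 mM and 27.98, 26.7, 25.2, 33.0 and 26.4 TPM at 4 mM. EIPA libraries held 8.51, 7.57, 8.66, 5.27 and 7.33 TPM, and IL-1a libraries 30.3, 30.2, 25.4, 32.5 and 30.1 TPM. The levels fell into separate ranges by glutamine, and the change was -1.88 ± 0.10 (limma adjusted p = 2.43e-12). Hist1h4m, on the plus strand at chr13:21811746-21812147, held 0.88, 0.95, 1.01, 1.88 and 2.33 TPM in vehicle at 0.2 mM and 2.55, 1.05, 3.1, 2.83 and 4.35 TPM at 4 mM. Its EIPA libraries were at 0.31, 0.36, 0, 0.94 and 0.79 TPM and its IL-1a libraries at 3.6, 7.92, 3.72, 1.84 and 3.0 TPM. The vehicle ranges overlapped, and the change of -0.76 ± 0.27 was called at the margin (limma adjusted p = 0.0445). That call was lost without 02Qveh replicate 1, 2 or 3, 4Qveh replicate 1, 3, 4 or 5, or 02Qeipa replicate 1 or 2 (adjusted p 0.05 to 0.127), and without the 3 libraries that stand apart (0.141). It was also lost with the replicate block (0.0541), a pseudocount of 0.1 (0.115), no filter (0.0855) and quantile normalisation (0.0612). Only 10.98% of its windows are its own.

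Across the tested genes a median of 50.7% of 75-base windows, the read length, belonged to no other gene, and 20 of the 40 had under 50%. The levels of such genes, Hist2h2aa2 with 0% among them, depend on how the estimation divided shared reads. By cluster, 31 of 32 tested Hist1 genes, 4 of 7 Hist2 genes and not the single Hist3 gene were lower, against 27.9% of all tested genes. Only 4 of the 32 Hist1 and 2 of the 7 Hist2 genes had reached the filter in the 0.2 mM libraries alone. These counts too are thus set in part by the filter. Summed over the tested genes of a cluster, the 4 mM to 0.2 mM vehicle ratio was 5.26 for Hist1, 2.30 for Hist2 and 0.843 for Hist3. The remaining 27 genes stayed below the filter. Among them 23 had a higher mean in vehicle at 4 mM than at 0.2 mM, 1 had a lower mean and 3 were equal, of which Hist1h2aa and Hist1h2ba were listed at 0 in all 20 libraries. The highest below the filter were Hist2h2bb, Hist1h4f and Hist1h2ab, with means of 0.733, 0.699 and 0.693 TPM.

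**Figure D3:**
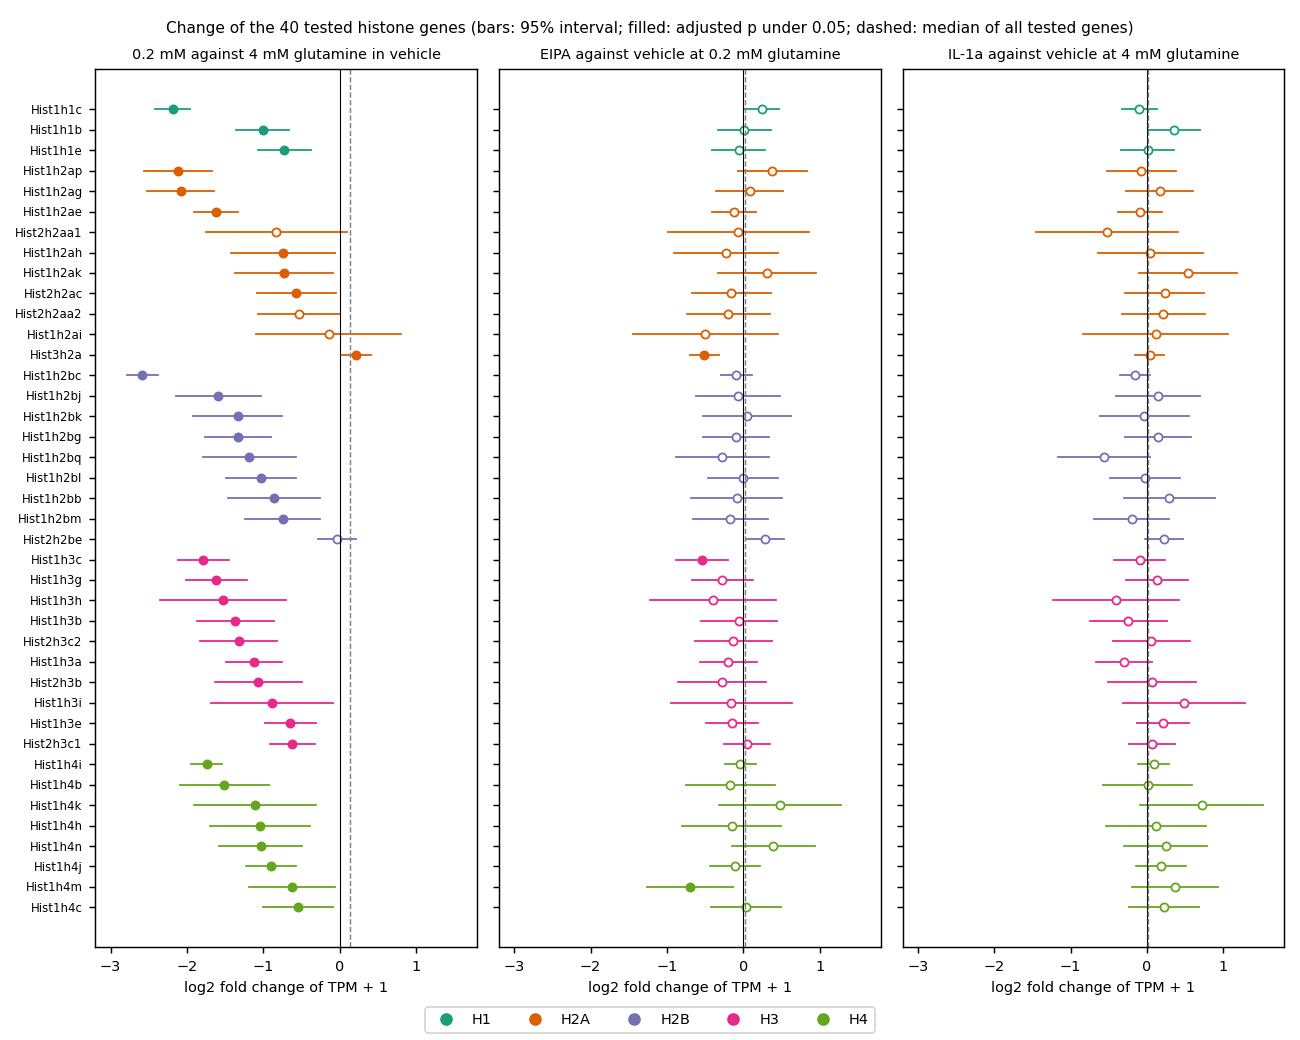
Unshifted log2 fold change of TPM + 1 (x axis) for each of the 40 tested histone genes (y axis, coloured by class) in the 3 comparisons; bars are 95% intervals, filled points passed the test and the dashed line is the median of all tested genes. In the glutamine panel 35 filled points lie left of 0 and 1 right of it, in the EIPA panel 3 lie left, and the IL-1a panel has no filled point.

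With EIPA at 0.2 mM glutamine 3 histone genes were lower than with vehicle. Hist3h2a, Hist1h3c and Hist1h4m fell, 0 were called higher and 37 tested genes were not called. The median change was -0.10 against 0.02 for all tested genes (-0.31 against 0.03 with a pseudocount of 0.1). Of the tested histone genes 7 had reached the filter in the 0.2 mM libraries alone, of which Hist3h2a was called. The other 33 had not, including Hist1h3c (mean 0.42 TPM with EIPA, 1.08 with vehicle) and Hist1h4m (0.48 and 1.41). The log2(TPM + 1) scale understates changes of such low genes, so their missing calls do not show that EIPA left them unchanged. In this comparison 48.5% of all tested genes were called, 27.4% higher and 21.1% lower. Hist3h2a fell by 0.51 ± 0.09 (limma adjusted p = 0.000108) and Hist1h3c by 0.54 ± 0.16 (limma adjusted p = 0.009), both with no overlap between the groups, as in 14.7% of all tested genes. Hist1h4m fell by 0.70 ± 0.27 (limma adjusted p = 0.0375), with 0.94 TPM in the highest EIPA library against 0.88 in the lowest vehicle library. That call was lost without 02Qeipa replicate 1, 2 or 3 or 02Qveh replicate 4 or 5 (adjusted p 0.0666 to 0.108), and with no filter on low values (0.076). The difference for Hist1h1c was 0.24 ± 0.11 (limma adjusted p = 0.075), and it was called without 02Qveh replicate 2 (0.0476). Hist2h2be, with 2.57, 1.87, 1.7, 2.12 and 1.3 TPM under EIPA, differed by 0.28 ± 0.12 (limma adjusted p = 0.06). It was called with the replicate number as a block (0.0318), without the 3 libraries that stand apart (0.0408), and without 02Qeipa replicate 5, 02Qveh replicate 4 or 4Qil1a replicate 1 (0.0162 to 0.0392).

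By class, over all members, the summed levels under EIPA and vehicle at 0.2 mM did not overlap for H3, at 2.0 to 3.79 against 4.39 to 7.02 TPM, and for H2A, at 9.7 to 13.2 against 13.7 to 20.1 TPM. Over the tested genes alone the H2A ranges overlapped, at 9.33 to 12.4 against 12.35 to 18.63 TPM. Those of H3 did not, at 1.84 to 3.56 against 4.16 to 6.76 TPM. The H2A difference included Hist3h2a, which alone went from a mean of 9.39 to 6.25 TPM. The class ranges of H1, H2B and H4 overlapped, with ratios of EIPA to vehicle of 1.2, 0.915 and 0.926. Mitochondrially encoded mRNAs took 5.18% to 6.78% of TPM with EIPA and 8.55% to 9.24% with vehicle, and without them the same 3 histone genes were called lower. The EIPA and glutamine comparisons share the 0.2 mM vehicle libraries, so their values are not independent.

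IL-1a at 4 mM glutamine gave no called histone gene. None of the 40 passed the limma test, the smallest adjusted p being 0.805 for Hist1h1b, and 1 gene had an unadjusted p under 0.05. Of all tested genes 0.283% were called, 0.259% higher and 0.0243% lower. The median change was 0.08 against 0.01 for all tested genes. The 95% intervals were -0.36 to 0.04 for Hist1h2bc, -0.33 to 0.13 for Hist1h1c and -0.11 to 0.29 for Hist1h4i, against -0.09 to 1.52 for Hist1h4k, so the interval was wider for that low gene. IL-1a replicate 2 held the highest value of its group in 25 of the 40 tested genes and the highest of all 20 libraries in 21. Its sum of 301 TPM compares with 172 to 210 TPM in the other 4 IL-1a libraries, and without it no histone gene was called either. This comparison shares the 4 mM vehicle libraries with the glutamine comparison.

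Genes that make and process histone mRNA were more often higher than lower at 0.2 mM glutamine, as were all tested genes (45.4% higher and 27.9% lower). Slbp, which encodes the stem-loop binding protein, was higher at 0.2 mM, at 226 ± 21.3 TPM (range 190 to 243) against 112 ± 4.74 TPM, a change of 0.86 ± 0.07 (limma adjusted p = 1.48e-10). Npat, the co-activator of histone gene transcription, rose by 0.40 ± 0.06 (adjusted p = 1.07e-07), and Lsm10, a protein of the U7 particle, by 0.76 ± 0.08 (adjusted p = 1.27e-09). Srrt, which encodes an RNA processing partner of the cap-binding complex, changed by -1.06 ± 0.08 (adjusted p = 3.61e-09). Of 31 tested genes for histone mRNA transcription and end processing 20 were higher and 6 lower, with a median of 0.17 relative to the median gene. With median-of-ratios scaling 15 were higher and 9 lower. Of 28 tested histone chaperone genes 17 were higher and 4 lower (13 and 7 with that scaling), led by Chaf1b at 0.97 ± 0.07 and Chaf1a at 0.96 ± 0.08, subunits of the assembly factor CAF-1. The lists share members, so their counts are not independent. Slbp, Chaf1a and Chaf1b are also in the S phase list below, and Cenpa is in both the mitosis and the variant list.

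Genes of S phase and of mitosis differed in opposite directions. The counts below compare with 45.4% higher and 27.9% lower among all tested genes. Of 50 tested S phase genes 41 were higher at 0.2 mM and 5 lower, with a median of 0.60 relative to the median gene, and 37 and 5 with median-of-ratios scaling. Mcm10, a replication initiation factor, was at 119 ± 6.003 TPM against 35.9 ± 1.54 TPM. Of 40 tested G2 and mitosis genes 3 were higher and 32 lower (1 and 37 with that scaling), with a median of -0.72, and Plk1, a mitotic kinase, was at 22.0 ± 2.12 against 95.3 ± 2.44 TPM. Among 9 tested cell cycle inhibitor genes 3 were higher and 6 lower, and Cdkn1a, which encodes p21, rose by 2.34 ± 0.16 (limma adjusted p = 1.52e-11). The part of these genes in the histone result was not tested.

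The listed histone variants other than the cluster genes were mixed. Of 11 tested genes 2 were called higher and 4 lower at 0.2 mM (0 and 7 with median-of-ratios scaling), against 45.4% and 27.9% of all tested genes. H2afx, whose transcript also carries the stem-loop, was at 49.3 ± 4.68 TPM (44.9 to 56.1) against 112 ± 2.37 TPM (109 to 115), a change of -1.31 ± 0.07 (limma adjusted p = 7.51e-12). Cenpa, the centromeric H3 variant, changed by -1.37 ± 0.07 (adjusted p = 1.86e-12). H3f3a and H3f3b, which both encode the replacement histone H3.3, were at 0.03 ± 0.05 and -0.30 ± 0.07 relative to the median gene, and the unshifted values were called higher (limma adjusted p = 0.0088) and lower (0.0413). Under EIPA 8 of the 31 processing genes were higher and 5 lower, close to the shares of all tested genes (27.4% and 21.1%). Of the 50 S phase genes 2 were higher and 23 lower, and Slbp was not called (-0.13 ± 0.07, limma adjusted p = 0.144). Under IL-1a no gene of these lists was called.

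**Figure D4:**
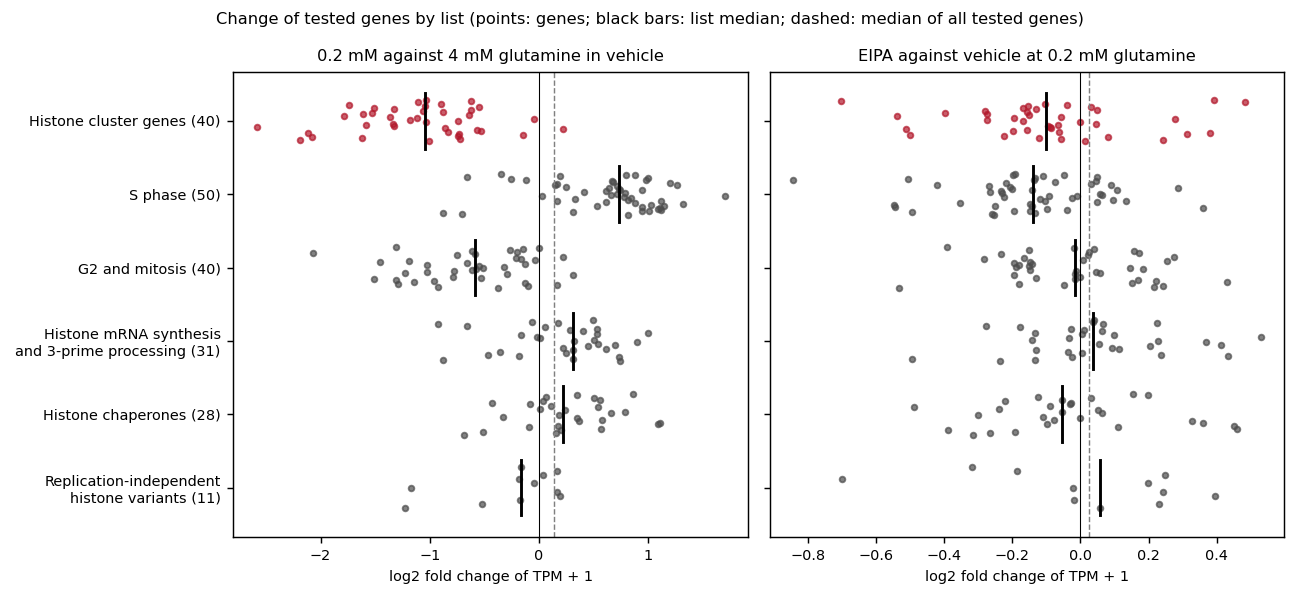
Unshifted log2 fold changes of TPM + 1 (x axis; scales differ between panels) for single genes (points) of the histone clusters and of 5 lists of related genes (y axis, number tested in brackets), with black bars at list medians and a dashed line at the median of all tested genes. In the glutamine panel the histone median of -1.04 and the G2 and mitosis median of -0.58 lie left of 0 and the S phase median of 0.74 right of it; in the EIPA panel the histone median is -0.10 and the S phase median -0.14.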

How the data were processed

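RNA of 20 libraries was extracted, selected for poly(A) and sequenced with 75-base paired reads, per the labels' protocols. RSEM and mm10 are named, without versions, in the submitters' processing notes. Which aligner and annotation release were used is not given in the sources used here. TPM were computed and deposited by the authors and sum to the same total in each library, so depth is unknown.

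The filter was 1 TPM in 5 or more libraries, and genes that passed were tested on log2(TPM + 1) with limma 3.58.1 (R 4.3.3), with a single 4-group model, an intensity trend and Benjamini-Hochberg adjustment over 12350 genes. Genes were called under 0.05. Values after ± are the SE for log2 changes and the SD for TPM. The fit was tested on simulated data. Histone members, gene lists and alternatives were chosen with earlier results of these data known. Named members were the 2 of highest mean level in each class and the 2 largest called rises and falls in each comparison. Of each related list, the 2 largest called changes could be named, and Slbp, Npat, Lsm10, H2afx, H3f3a and H3f3b whatever they did. Other examples were chosen after their values were seen. Stem-loops and 75-base windows, compared with all transcripts on the sense strand, came from GENCODE M21, and promoters from RefSeq. Alternatives covered pseudocount, filters, scaling, samples fitted, variance trend, replicate block and single libraries left out.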

Additional observations from a re-analysis of the deposited data

Results flagged for a closer look

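A single library far from the other 4 of its group was found in 4 of 68 sets of 5 libraries screened for the named members and class sums with Dixon's test at 0.71; chance gives about 1 in 20 such sets. Hist1h3c was at 0.15 TPM in EIPA replicate 4, against 0.47 to 0.53 TPM in the other 4, and at 3.2 TPM in IL-1a replicate 3, against 5.97 to 6.97 TPM. In vehicle at 0.2 mM glutamine, the summed level of the tested H3 genes was 6.76 TPM in replicate 4, against 4.16 to 4.91 TPM. There the summed level of the tested H4 genes was 10.0 TPM in replicate 3, against 11.7 to 12.1 TPM.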

How the results depend on the processing

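No called change of a named histone gene turned its sign under the alternatives. The sign changed under at least 1 for 13 results: 8 gene differences that were not called, and 5 medians or summed ratios, which include the IL-1a median and the IL-1a ratio of summed TPM (-0.09 to 0.11 without single libraries). Leaving out single libraries gave 29 to 35 histone genes lower and 0 to 1 higher between glutamine levels, 2 to 3 lower and 0 to 1 higher with EIPA, and 0 with IL-1a. Median changes then ranged from -1.09 to -0.98, from -0.12 to -0.07 and from -0.04 to 0.15. In 29 genes the lower level at 0.2 mM was called in every alternative that tested them. Of these only Hist1h1c, Hist1h2bc, Hist1h2bj and Hist1h4i had reached the filter in the 0.2 mM libraries alone. The others reached it only through the 4 mM libraries and were not tested under the filter on the 0.2 mM libraries. The EIPA comparison had 1 gene higher with a pseudocount of 0.1, Hist1h2ap, where Hist1h3g was also called lower (-1.32, limma adjusted p = 0.0402), and 1, Hist2h2be, with no intensity trend, without the 3 libraries set apart and with the replicate block. It had 1 lower when a mean of at least 5 TPM (4 members tested) or 1 TPM in 5 of the 0.2 mM libraries (7 members, added after seeing the data) was asked for, since fewer genes are tested. Those filters gave 3 and 4 lower genes between glutamine levels, with medians of -1.96 and -1.59. No filter gave a median of -0.73 over 65 members. With a pseudocount of 0.1 the median was -2.29, and -0.31 for EIPA. Between glutamine levels 0 genes were higher with median-of-ratios or quantile scaling, without mitochondrial genes, or with 2 groups in the model. The log2 ratio of summed TPM was -2.15 with median-of-ratios scaling and -1.70 without the 3 highest members. Without them it was -0.39 for EIPA, in a sum that still included Hist3h2a. Leaving out the 3 highest members was added after seeing the data. For the changes by pseudocount or scaling the cause was not tested. Replicate numbers were not taken to pair the samples, since the correlation of same-numbered libraries was over 0.1 in 10 of 15 pairs and not in all. It was positive in 14 (-0.28 to 0.60), and 8, 5 and 8 of 10 libraries correlated best with their own number for EIPA, IL-1a and glutamine, a hint of pairing from the data and not from the design. With the block 6305 in place of 5986 genes were called for EIPA. The replicate block gave 33 lower and 1 higher histone genes between glutamine levels and 3 lower with EIPA. Over all genes, the IL-1a comparison called 19 in place of 35 with 2 groups in the model. Genes of a few TPM rest on an unknown number of reads.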
